A study of Mus musculus with 4 samples.

Results

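Complement and coagulation are cascades of plasma proteins that the liver makes and secretes. Transcripts of 38 genes of these cascades were taken by gene name from the deposited table of 54149 genes, and all 38 were found there. The list was set by function, from initiators of complement to fibrinogen and plasminogen, but it was chosen with earlier results of these data known. The livers came from adult females of the strain C57BL/6 x 129S4/SvJae. The knockout (KO) mice lacked Utx, listed as Kdm6a, in the liver, and the controls were wild-type (WT) mice matched for age and sex. All mice of both groups had been fasted for 16 h and had then been given acetaminophen (APAP) intraperitoneally at 300 mg/kg. Since every animal received the drug, nothing here measures the response to it. Each group held 2 poly(A)-selected libraries, and each library was a pool of liver RNA from 2 mice. The driver of the liver-specific deletion, exact ages and the time from dosing to collection were not found in the labels.

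In complement, proteases activated on a foreign or damaged surface split C3 and then C5, and C5b gathers C6 to C9 into a membrane pore. The classical route begins with C1q, the lectin route with mannose-binding lectins, and the alternative route amplifies deposited C3b through factor B. In coagulation, a chain of proteases generates thrombin, which turns fibrinogen into fibrin, and plasmin made from plasminogen dissolves the clot. Hepatocytes secrete most of these proteins. C1q is an exception, since macrophages are its main source, and the liver's resident macrophages are Kupffer cells. Several of the proteins, fibrinogen and C3 among them, are acute phase reactants.

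Levels are FPKM values, which are read counts scaled by gene length and by library size, so that levels can be set side by side across genes. Between 16330451 and 17804730 whole reads per library could be recovered from these values, so the least abundant of the 38 genes, Cfb, still rested on 71 to 123 reads per pool. Differences were tested with limma on log2(FPKM + 0.5) over the 11900 genes that averaged 1 FPKM or more, and p-values were adjusted over all of them by Benjamini-Hochberg with a threshold of 0.05. All 38 genes passed this filter. With 2 pools a group, each p-value sets the group difference against a spread between pools, which limma estimates partly from other genes. The spread between single mice was not measured. Kdm6a was at 2.20 and 2.12 FPKM in the KO pools, against 3.40 and 3.85 FPKM in the WT pools (log2 fold change -0.63, SE 0.13, limma adjusted p = 0.0715). Both KO pools were below both WT pools, and the difference did not pass the threshold. The 11 hepatocyte markers measured were abundant, with sums of 45207 and 34955 FPKM in KO and of 39687 and 48873 FPKM in WT pools. Markers of neutrophils summed to 40.4 and 36.2 FPKM in KO and to 121 and 186 FPKM in WT pools over 12 genes. For 9 of the 9 tested, both KO pools were below both WT pools, where the share over all tested genes was 29.9%. Camp, a marker too low to be tested, went the other way, at 0.518 and 1.00 FPKM in KO and 0.156 and 0 FPKM in WT pools. Mitochondrial ribosomal RNA took 0.108% and 0.158% of reads in KO and 0.244% and 0.251% in WT pools. These shifts between the groups lie beside every comparison below, and their part in the results was not tested. In bulk RNA, fewer cells of a type and less RNA per cell cannot be told apart.

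Hc, which encodes complement C5, was the only one of the 38 genes that passed the test. It stood at 130.3 and 119 FPKM in the KO pools, against 57.4 and 71.0 FPKM in the WT pools. Both KO pools lay well above both WT pools, with means of 125 ± 7.67 FPKM in KO and 64.2 ± 9.57 FPKM in WT (SD over 2 pools in each group, as for all values written with ±). Hc overlaps Gm13449, an antisense gene at 0.336 to 1.55 FPKM. The level of Gm13449 came to 7 to 34 reads a pool, against 6085 to 14555 reads for Hc. Since strand marking is not stated, reads within the overlap cannot be told apart. On the log2 scale the difference was 0.96 with a standard error (SE) of 0.15, a 95% confidence interval of 0.56 to 1.36 and a limma adjusted p of 0.0475. Hc rose 1.95-fold, and 0 of the 38 genes fell, with 1 lower at an unadjusted limma p under 0.05 and 0 lower by limma voom. Over all tested genes 1.6% rose and 3.14% fell, so a single call among 38 is close to this background. The 190 genes higher and 374 lower became 211 and 255 when FPKM were rescaled to the reads listed, and 435 and 466 with limma voom. The call of Hc lies near the threshold: it was lost without any one of the 4 libraries (adjusted p between 0.0736 and 0.162), with a replicate block (0.0848), without a mean-variance trend (0.0620) and without a filter on low values (0.122). With limma voom on the recovered reads 5 of the 38 genes were called, all higher in KO (Hc, C9, Mbl1, F7 and Masp2), where 3.66% of all genes were. At a minimum mean of 5 FPKM, Hc and C9 were called, where 3.56% of 6548 genes were higher.

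Promoter sequences are shown for Hc, the gene that passed, for the fibrinogen chain genes Fga, Fgb and Fgg, which were highest in KO pool 1, and for C1qb and C1qc of the C1q chains, which were lowest there. They are RefSeq windows on GRCm38.p6 of 250 bases before to 50 bases after the start, written 5′ to 3′ on the gene's strand. The windows are chr2:35061363-35061662 (minus strand) for Hc, chr3:83025903-83026202 (plus) for Fga, chr3:83049814-83050113 (minus) for Fgb, chr3:83007474-83007773 (plus) for Fgg, chr4:136886151-136886450 (minus) for C1qb and chr4:136892865-136893164 (minus) for C1qc. Capitals mark matches on either strand to 3 motifs: a core site of the hepatocyte factor HNF1 (GTTAAT), the C/EBP motif (TTGCNNAA) and the motif of the myeloid factor PU.1 (GAGGAAG).
Hc: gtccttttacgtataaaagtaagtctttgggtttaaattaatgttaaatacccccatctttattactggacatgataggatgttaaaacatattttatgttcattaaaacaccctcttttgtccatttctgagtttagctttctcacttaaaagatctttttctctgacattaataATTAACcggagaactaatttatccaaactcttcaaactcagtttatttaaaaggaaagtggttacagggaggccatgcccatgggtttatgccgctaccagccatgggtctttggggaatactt
Fga: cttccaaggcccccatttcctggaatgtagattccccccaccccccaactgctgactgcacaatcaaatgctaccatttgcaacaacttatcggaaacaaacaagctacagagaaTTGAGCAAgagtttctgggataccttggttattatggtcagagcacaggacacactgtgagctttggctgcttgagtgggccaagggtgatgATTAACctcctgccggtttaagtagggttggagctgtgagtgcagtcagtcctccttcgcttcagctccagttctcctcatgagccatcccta
Fgb: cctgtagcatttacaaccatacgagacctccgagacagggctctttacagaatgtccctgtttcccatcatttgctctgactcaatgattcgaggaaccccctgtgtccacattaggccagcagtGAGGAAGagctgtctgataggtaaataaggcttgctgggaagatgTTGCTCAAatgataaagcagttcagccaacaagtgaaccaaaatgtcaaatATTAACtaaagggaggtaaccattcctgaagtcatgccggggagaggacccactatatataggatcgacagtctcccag
Fgg: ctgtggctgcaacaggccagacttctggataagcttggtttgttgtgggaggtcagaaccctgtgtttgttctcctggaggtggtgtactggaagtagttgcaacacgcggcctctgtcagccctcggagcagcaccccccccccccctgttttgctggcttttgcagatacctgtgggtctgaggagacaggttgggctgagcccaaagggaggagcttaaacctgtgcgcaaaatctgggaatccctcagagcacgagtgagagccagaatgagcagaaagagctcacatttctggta
C1qb: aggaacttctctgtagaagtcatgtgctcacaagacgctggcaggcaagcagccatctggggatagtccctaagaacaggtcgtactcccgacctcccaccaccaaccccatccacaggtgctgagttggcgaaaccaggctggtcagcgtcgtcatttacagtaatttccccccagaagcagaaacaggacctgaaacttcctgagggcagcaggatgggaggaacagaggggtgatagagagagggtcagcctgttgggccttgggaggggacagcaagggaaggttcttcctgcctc
C1qc: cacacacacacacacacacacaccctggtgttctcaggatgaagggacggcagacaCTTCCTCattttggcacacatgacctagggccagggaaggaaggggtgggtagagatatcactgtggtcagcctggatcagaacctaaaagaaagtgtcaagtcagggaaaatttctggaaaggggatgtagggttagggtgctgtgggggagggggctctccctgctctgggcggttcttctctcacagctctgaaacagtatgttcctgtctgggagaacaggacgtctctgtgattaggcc

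The HNF1 core site was found once each in the Hc, Fga and Fgb windows, at bases -74, -43 and -29 relative to the start. A C/EBP match lay in the Fga and Fgb windows, at bases -135 and -80. The Fgg window held neither, and a CTGGGAA match, the core of an interleukin-6 response element, lay there at base -13 and in Fgb at base -91. PU.1 matches lay in the Fgb and C1qc windows, and C1qb held no match to any motif searched. Of the 38 genes, 29 had a window in the table, and 10 of them held an HNF1 core site (34.5%), against 7.13% of 32544 distinct windows. C/EBP matches were in 9 of 29 (31.0%), against 10.8% of all windows, and PU.1 matches in 2 of 29 (6.90%), against 13.4%. The AP-1 motif TGANTCA, a binding motif of the Jun and Fos proteins, was in 3 of 29 (10.3%), against 7.79%. The STAT motif TTCNNNGAA was in 8 of 29 genes (27.6%), against 8.33% of windows, and CTGGGAA in 7 of 29 (24.1%), against 11.02%. No 2 matches overlapped in the windows printed here. A match is a description of the letters and not a sign of binding.

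**Figure D1:**
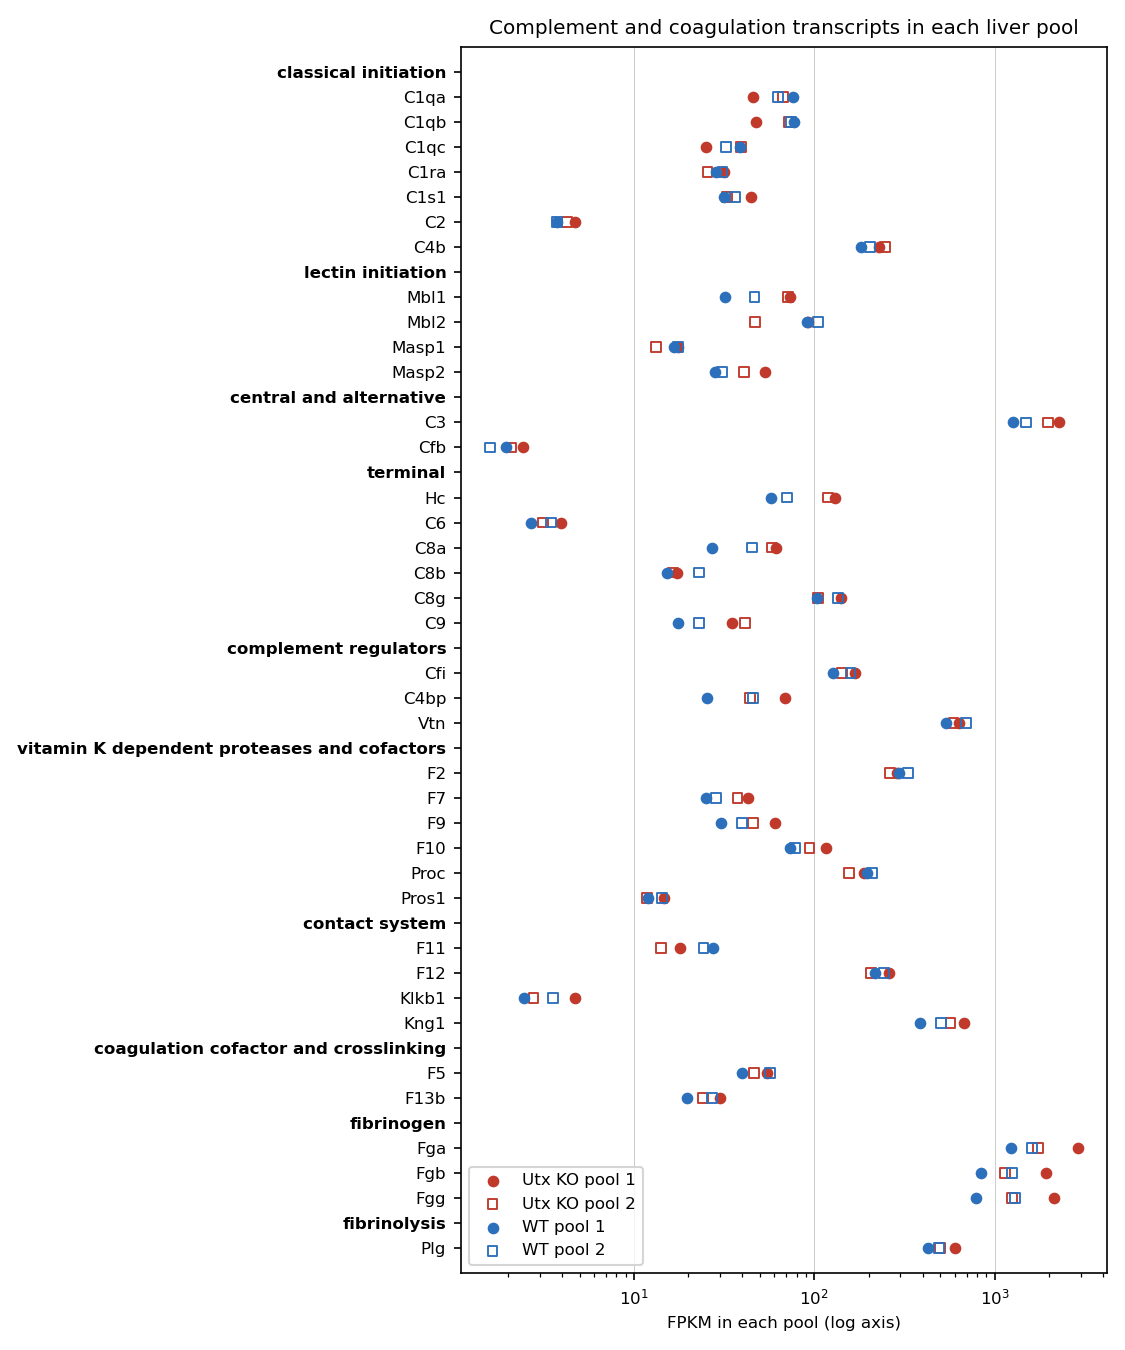
FPKM of each of the 38 genes (log axis) in Utx KO pools 1 and 2 (red) and WT pools 1 and 2 (blue), by role in the cascades; filled circles are pool 1 and open squares pool 2 of each group. Levels ran from 1.60 FPKM for Cfb in WT pool 2 to 2885 FPKM for Fga in KO pool 1, and KO pool 1 was the highest of the 4 pools for 25 genes.

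As a set, the 38 genes leaned toward higher values in KO, but the lean was small and depended on the pool. The median log2 fold change was 0.22, against 0.01 over all tested genes, and 28 of 38 fold changes were positive (73.7%), against 51.4% of all. Both KO pools lay above both WT pools for 15 of the 38 (39.5%), and over all tested genes this held for 31.6%. They lay below both WT pools for 4 of the 38 (10.5%), namely F11, F2, Proc and C1qb, where the share over all genes was 29.9%. At an unadjusted limma p under 0.05, 9 were higher and 1 lower, and the shares over all genes were 12.7% higher and 14.4% lower. Without KO replicate 1 the median was 0.09, and without KO replicate 2 it was 0.35. Without WT replicate 1 it was 0.05, and without WT replicate 2 it was 0.34.

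The spread within groups had one shape for most of the list. KO pool 1 was above KO pool 2 for 33 of the 38 genes (86.8%), against 48.8% of all tested genes. WT pool 1 was below WT pool 2 for 33 of the 38 (86.8%), against 52.1% of all genes. Both held for 31 genes (81.6%), against 30.1% of all genes. KO pool 1 was the highest pool for 25 genes and WT pool 1 the lowest for 26. Summed over the list, the level was 13510 and 9863 FPKM in KO, against 7391 and 9542 FPKM in WT pools, so KO pool 2 and WT pool 2 were nearly equal. Fibrinogen chains made up 6958 and 4131 FPKM of it in KO and 2861 and 4153 FPKM in WT pools. The hepatocyte marker sums given above had the same order of pools within each group, KO pool 1 over KO pool 2 and WT pool 2 over WT pool 1. Its part in the result was not tested.

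**Figure D2:**
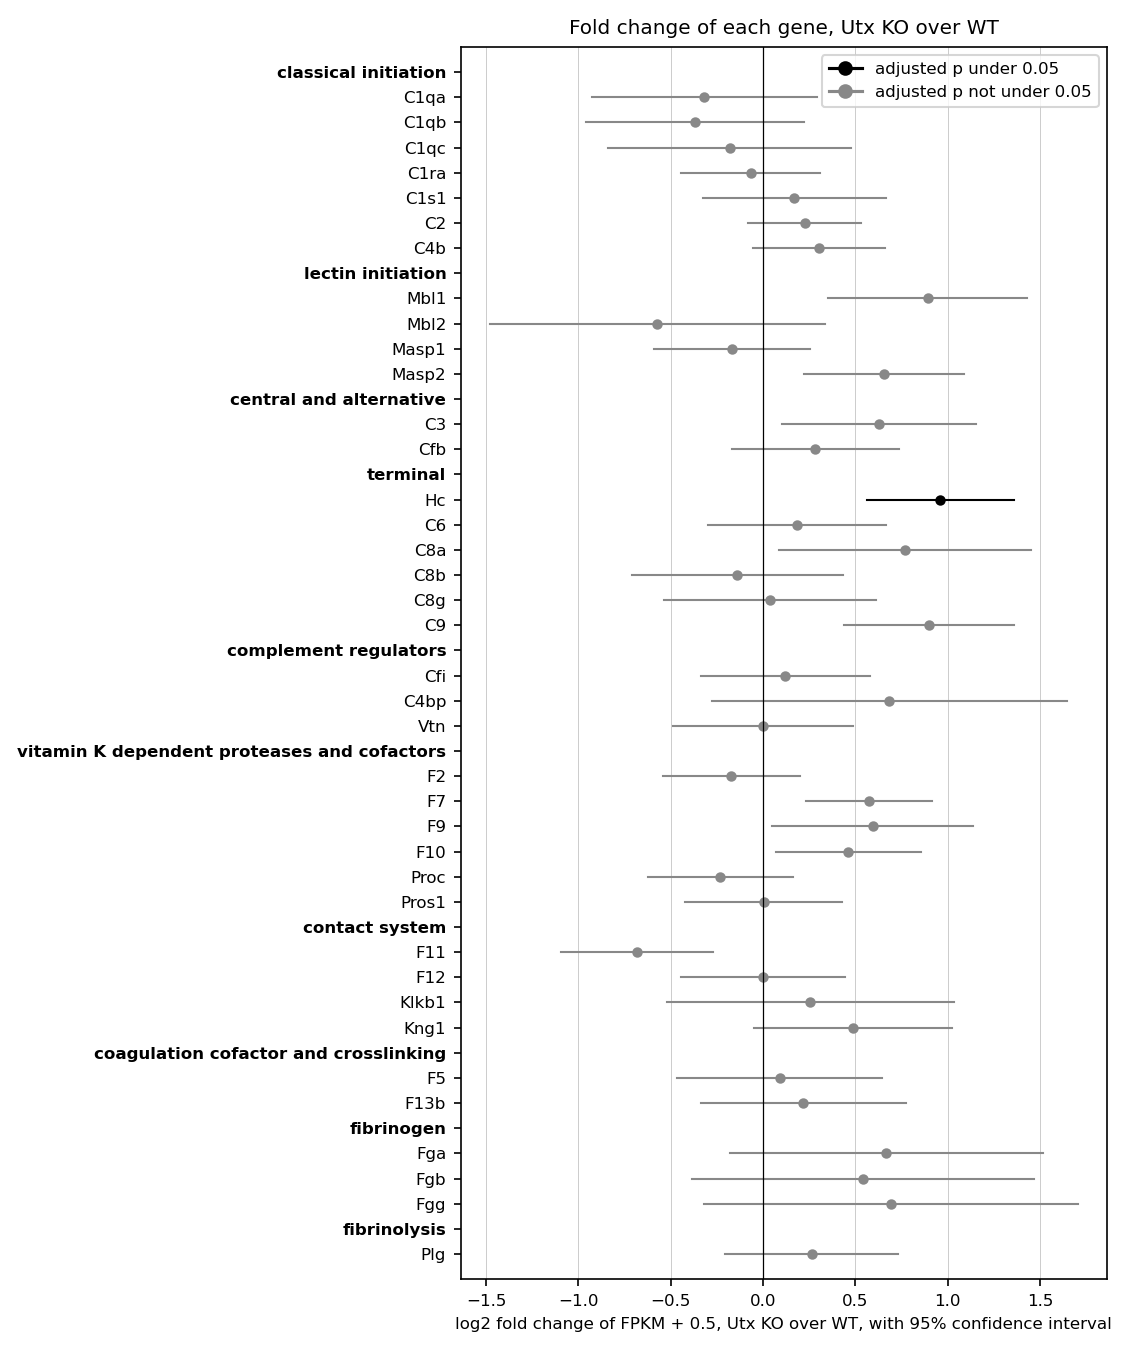
Log2 fold change of FPKM + 0.5, Utx KO over WT, for each of the 38 genes with its 95% confidence interval from limma (n = 2 pools per group). Hc (0.96) is the gene drawn in black, with an adjusted p under 0.05, and F11 (-0.68) has the most negative value.

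In the classical pathway the C1q chains were lowest in KO pool 1, the pool in which most of the 38 genes were highest. C1qa, C1qb and C1qc encode the chains of C1q, which recognizes bound antibody and damaged cells. C1qa was at 45.5 and 67.4 FPKM in KO and at 76.2 and 62.7 FPKM in WT pools. C1qb was at 47.6 and 72.4 FPKM in KO and at 77.0 and 74.6 FPKM in WT pools, and C1qc at 25.0 and 39.3 FPKM in KO and 39.0 and 32.5 FPKM in WT pools. All chains were lowest in KO pool 1, at 0.701 to 0.736 of their own mean over the 4 pools, while in KO pool 2 they were at 1.07 to 1.16 of it. None passed (log2 fold changes -0.32, -0.37 and -0.18, limma adjusted p between 0.350 and 0.675), and without KO replicate 1 C1qc turned to 0.14. Summed over the 12 Kupffer cell and macrophage markers, the same pool was lowest, with 209 and 341 FPKM in KO and 320 and 243 FPKM in WT pools. Clec4f, 1 of the 12, was instead lowest in WT pool 2, at 32.2 FPKM, against 33.3 FPKM in KO pool 1. None of these markers was at 0, and their median log2 fold change was -0.01. The scavenger receptor gene Cd163 was the 1 of the 12 called lower, where 3.14% of all tested genes were. Its limma adjusted p of 0.0467 lies near the threshold. How far the number of macrophages set the C1q level was not tested.

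C1ra and C1s1 encode the proteases that C1q activates, and C4b and C2 the proteins they cut to form the C3 convertase. C1ra averaged 28.5 ± 4.12 FPKM in KO and 29.8 ± 1.72 FPKM in WT, and C1s1 38.6 ± 8.36 FPKM in KO and 34.0 ± 3.40 FPKM in WT. Their pools overlapped between groups, and both genes have close paralogs (C1rb and C1s2) that may share reads with them. C1rb was listed with 1 to 45 reads a pool, against 1310 to 1672 for C1ra. C1s2 was listed with 4 to 6 reads a pool, against 1669 to 2484 for C1s1. C4b was at 229 and 248 FPKM in KO and at 182 and 204 FPKM in WT pools. C2 was far less abundant and overlaps Zbtb12, at 1.92 to 2.34 FPKM. It was at 4.71 and 4.25 FPKM in KO and 3.74 and 3.76 FPKM in WT pools. Both KO pools were above both WT pools for each, by log2 fold changes of 0.31 (C4b, 95% confidence interval -0.05 to 0.66, limma adjusted p = 0.231) and 0.23 (C2, -0.08 to 0.53, limma adjusted p = 0.283). C4a, a close paralog of C4b, was at 1.69 and 2.96 FPKM in KO and 6.21 and 6.12 FPKM in WT pools, so the division of reads between these paralogs is uncertain, although C4b was at least 29.2 times the C4a level in each pool.

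The lectin route held both directions. Mbl1 encodes mannose-binding lectin A and was at 73.1 and 71.4 FPKM in KO, against 32.1 and 46.7 FPKM in WT pools. Mbl2 encodes mannose-binding lectin C and was at 92.2 and 46.9 FPKM in KO, against 91.1 and 105 FPKM in WT pools. For Mbl1 both KO pools were clearly higher, while for Mbl2 KO pool 2 stood apart. Mbl1 had a log2 fold change of 0.89 with SE 0.20 and a limma adjusted p of 0.0810, and Mbl2 one of -0.57 with SE 0.34 and an adjusted p of 0.344. The ratio of Mbl2 to Mbl1 was 1.26 and 0.656 in KO pools, against 2.84 and 2.26 in WT pools. Masp2, the lectin-associated protease that cuts C4 and C2, was at 53.1 and 40.9 FPKM in KO and 28.0 and 30.9 FPKM in WT pools (log2 fold change 0.65, SE 0.16, limma adjusted p = 0.0950). It overlaps Tardbp, a gene at 26.0 to 36.1 FPKM on the other strand, over 3118 bases, and strand marking is not stated, so some reads may belong to either. Masp1, which activates Masp2, was at 17.5 and 13.3 FPKM in KO and 16.8 and 17.6 FPKM in WT pools, without a called difference (-0.17, 95% confidence interval -0.59 to 0.25). It overlaps Rtp4 (127 to 219 reads a pool) and Gm45338 (56 to 90 reads) on the other strand, against 2246 to 3062 reads for Masp1.

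C3, on which all routes converge, was among the most abundant transcripts of the list. It was at 2268 and 1974 FPKM in KO, against 1258 and 1488 FPKM in WT pools. Both KO pools were above both WT pools, with a log2 fold change of 0.63 (SE 0.20, 95% confidence interval 0.11 to 1.15, limma adjusted p = 0.136). Cfb, factor B of the alternative route, was at 2.44 and 2.09 FPKM in KO and 1.95 and 1.60 FPKM in WT pools (0.28, -0.17 to 0.73, limma adjusted p = 0.346). C3 was thus measured with far more reads than its alternative-route partner.

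Among the 6 terminal components, Hc, C8a and C9 lay above both WT pools in both KO pools, while C6, C8b and C8g overlapped. Over all tested genes, both KO pools lay above both WT pools for 31.6%. C9, whose polymer lines the membrane pore, was at 35.1 and 41.2 FPKM in KO, against 17.6 and 23.0 FPKM in WT pools (log2 fold change 0.90, SE 0.17, limma adjusted p = 0.0627). C6 was at 3.96 and 3.15 FPKM in KO and 2.68 and 3.47 FPKM in WT pools. The C8 chains, which join into one protein, did not share a pattern. C8a was at 61.6 and 58.6 FPKM in KO and 27.2 and 45.1 FPKM in WT pools (0.77, SE 0.26, limma adjusted p = 0.150). It overlaps Gm17662 on the other strand, at 41.3 to 66.2 FPKM, which for its listed length of 24 bases comes to 17 to 25 reads a pool, against 1673 to 3992 reads for C8a. C8g overlaps Fbxw5 on the other strand over 970 bases. Fbxw5 had 748 to 989 reads a pool, against 2616 to 3743 for C8g, and some reads may belong to either. C8b was at 17.5 and 16.5 FPKM in KO and 15.2 and 23.0 FPKM in WT pools (-0.14, SE 0.22, limma adjusted p = 0.714). C8g was at 141 and 105 FPKM in KO and 104 and 136 FPKM in WT pools (0.04, SE 0.22, limma adjusted p = 0.928). Hence the ratio of C8a to C8b was 3.53 and 3.55 in KO pools, against 1.79 and 1.96 in WT pools.

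**Figure D3:**
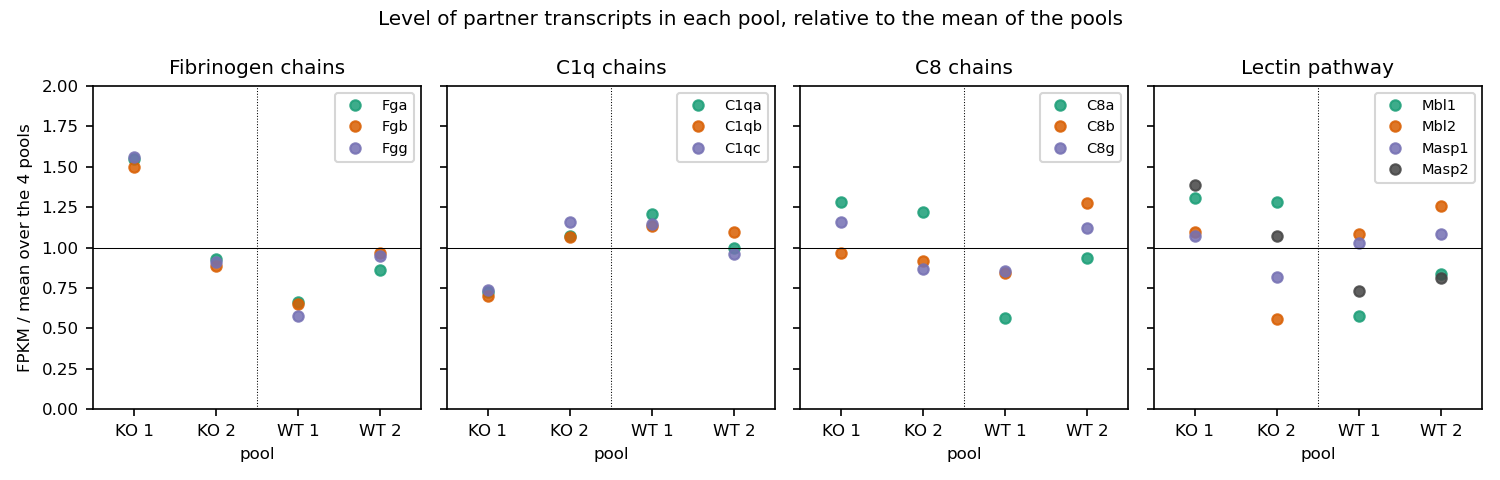
FPKM of the fibrinogen, C1q and C8 chains and of the lectin pathway genes in each pool, divided by the gene's own mean over the 4 pools (linear axis; KO pools left, WT pools right of the dotted line). The fibrinogen chains move together and peak in KO pool 1, the C1q chains are each lowest there, and the C8 and lectin genes spread apart.

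A ratio of levels within a pool does not depend on how that pool was scaled. The partner pairs were chosen after the values had been seen, so these ratios are a description without a test. Masp2 to Masp1 was 3.04 and 3.07 in KO pools, against 1.67 and 1.75 in WT pools. C3 to Hc was 17.4 and 16.5 in KO pools, against 21.9 and 21.0 in WT pools. In each of these pairs, as for C8a to C8b, the pools of a group nearly matched and the groups were apart. Fga to Fgb was 1.496 and 1.52 in KO pools and 1.48 and 1.29 in WT pools, and F10 to F7 was 2.72 and 2.51 in KO pools and 2.92 and 2.75 in WT pools, with little difference between groups.

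**Figure D4:**
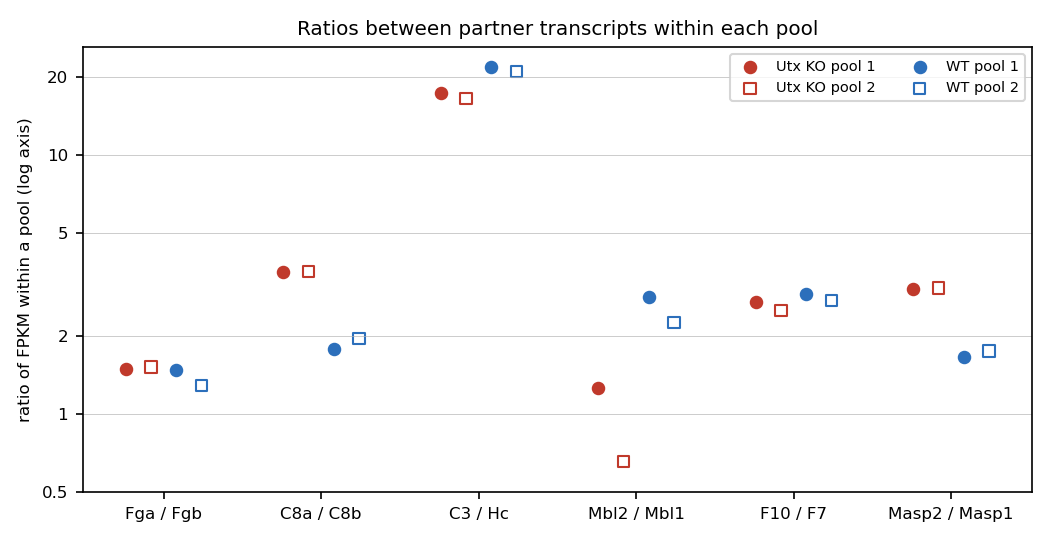
Ratio of FPKM between partner transcripts within each pool (log axis) for Utx KO pools (red) and WT pools (blue). C8a / C8b and Masp2 / Masp1 lie at 3.53 and 3.55 and at 3.04 and 3.07 in KO pools, above all values of 1.67 to 1.96 in WT pools, while Fga / Fgb lies between 1.29 and 1.52 in all pools.

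Regulators of complement showed no called difference, where 4.74% of all tested genes were called. Vtn, vitronectin, which blocks assembly of the membrane pore, was at 634 and 592 FPKM in KO and 541 and 694 FPKM in WT pools, and the 95% confidence interval of its log2 fold change was -0.49 to 0.49. Cfi, factor I, a protease that inactivates C3b and C4b, averaged 155 ± 18.0 FPKM in KO and 143 ± 22.8 FPKM in WT (interval -0.34 to 0.58). C4bp, a cofactor of factor I, was at 69.0 and 44.0 FPKM in KO and 25.3 and 45.8 FPKM in WT pools. KO pool 1 and WT pool 1 lay at the extremes of C4bp while the other pools matched, and the interval was -0.28 to 1.65.

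None of the 6 vitamin K-dependent genes was called, where 4.74% of all tested genes were. F7, factor VII, which starts coagulation with tissue factor, was at 42.8 and 37.6 FPKM in KO, against 25.2 and 28.5 FPKM in WT pools (log2 fold change 0.57, SE 0.13, limma adjusted p = 0.0792). Its neighbour F10, factor X, was at 116 and 94.2 FPKM in KO and 73.5 and 78.3 FPKM in WT pools (0.46, SE 0.15, limma adjusted p = 0.140), and F9, factor IX on the X chromosome, at 60.7 and 45.8 FPKM in KO and 30.5 and 39.6 FPKM in WT pools (0.59, SE 0.21, limma adjusted p = 0.159). For F7, F10 and F9, 3 of the 6, both KO pools were above both WT pools, where the share over all tested genes was 31.6%. F2, prothrombin itself, was at 289 and 264 FPKM in KO and 293 and 329 FPKM in WT pools (-0.17, 95% confidence interval -0.54 to 0.20). Proc, protein C, which inactivates factors V and VIII, was at 189.5 and 157 FPKM in KO and 197 and 208 FPKM in WT pools (-0.23, -0.62 to 0.16). For F2 and Proc both KO pools were below both WT pools by a small margin, where the share over all tested genes was 29.9%. Pros1, the cofactor of protein C, averaged 13.2 ± 2.00 FPKM in KO and 13.2 ± 1.70 FPKM in WT.

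The contact system gave the most negative value of the list. F11, factor XI, which activates factor IX, was at 17.9 and 14.2 FPKM in KO, against 27.5 and 24.3 FPKM in WT pools. Both KO pools were below both WT pools, by a log2 fold change of -0.68 (SE 0.16, 95% confidence interval -1.10 to -0.27, limma adjusted p = 0.0818). Its adjusted p ran from 0.0629 to 0.205 over the alternatives. Klkb1, plasma prekallikrein, the next gene on chromosome 8 and a homolog of F11, was at 4.72 and 2.78 FPKM in KO and 2.45 and 3.57 FPKM in WT pools (0.26, -0.52 to 1.03). Kng1, kininogen, the source of bradykinin, was at 673 and 569 FPKM in KO and 385 and 505 FPKM in WT pools (0.49, -0.05 to 1.03, limma adjusted p = 0.210). Its paralog Kng2 was at 155 and 129 FPKM in KO and 85.4 and 113 FPKM in WT pools, and reads shared by both cannot be placed with certainty. F12, factor XII, averaged 232 ± 36.5 FPKM in KO and 231 ± 19.0 FPKM in WT (-0.44 to 0.44).

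F5, the cofactor of factor X, and F13b, the carrier subunit of the fibrin-crosslinking factor XIII, overlapped between groups. F5 averaged 50.6 ± 5.79 FPKM in KO and 48.1 ± 12.0 FPKM in WT, and F13b 27.1 ± 4.31 FPKM in KO and 23.4 ± 5.39 FPKM in WT.

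The fibrinogen chains were the most abundant coagulation transcripts and the most uneven between pools. Fga, the alpha chain, was at 2885 and 1737 FPKM in KO and at 1234 and 1607 FPKM in WT pools. Fgb, the beta chain, was at 1929 and 1142 FPKM in KO and 835 and 1246 FPKM in WT pools, and Fgg, the gamma chain, at 2144 and 1252 FPKM in KO and 791 and 1300.0 FPKM in WT pools. In every chain KO pool 1 was at 1.50 to 1.56 times the gene's mean over the pools and WT pool 1 at 0.576 to 0.662 of it, and the other pools lay between. The log2 fold changes of 0.67, 0.54 and 0.69 had standard errors of 0.32, 0.35 and 0.38, and none was called (limma adjusted p between 0.260 and 0.377). Without KO replicate 1 they were 0.30, 0.16 and 0.30, and without WT replicate 1 0.48, 0.25 and 0.33. The genes are neighbours on chromosome 3 of GRCm38 (Fgg 83007724 to 83015049, Fga 83026076 to 83033627, Fgb 83040141 to 83049863), with Fgb on the opposite strand. Plg, plasminogen, the precursor of the enzyme that dissolves fibrin, was at 607 and 499 FPKM in KO and 426 and 493 FPKM in WT pools (0.26, 95% confidence interval -0.21 to 0.73).

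The rest of both cascades was taken from a list of 73 other genes, of which 52 reached the filter. Of these, 1 rose, 3 fell and 48 did not pass, and the median log2 fold change was 0.13. The share called in either direction, 7.69%, compares with 4.74% of all tested genes (1.6% higher and 3.14% lower). C1rl, a protease related to C1r, rose, at 35.0 and 34.6 FPKM in KO and 20.6 and 21.9 FPKM in WT pools (log2 fold change 0.70, SE 0.10, limma adjusted p = 0.0426). Plaur and Thbd, which encode proteins of the cell surface, were among the genes that fell. Plaur, the urokinase receptor, was at 3.24 and 4.59 FPKM in KO, against 12.1 and 13.3 FPKM in WT pools (-1.60, SE 0.18, limma adjusted p = 0.0315). Thbd, thrombomodulin, which turns thrombin toward protein C, was at 1.97 and 2.35 FPKM in KO, against 8.44 and 10.8 FPKM in WT pools (-1.92, SE 0.17, limma adjusted p = 0.0258). These groups were far apart, although the calls of C1rl, Plaur and Thbd were each lost without KO replicate 1, without WT replicate 1, without WT replicate 2 or without a filter on low values. C1rl also lost its call without KO replicate 2 (limma adjusted p = 0.113), with the replicate block (0.0939) and without a mean-variance trend (0.0620). Neutrophil and endothelial cells can also express Plaur or Thbd, and the neutrophil marker sums given above were lower in the same KO pools. The 10 sinusoidal endothelial markers summed to 67.6 and 74.0 FPKM in KO and to 96.5 and 91.6 FPKM in WT pools, with none at 0 in all pools. For 5 of the 10, both KO pools were below both WT pools, where the share over all tested genes was 29.9%. Of the 10, 0 were called and 4 were lower at an unadjusted limma p under 0.05, against 14.4% of all tested genes. The part of either cell type in these results was not tested.

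**Figure D5:**
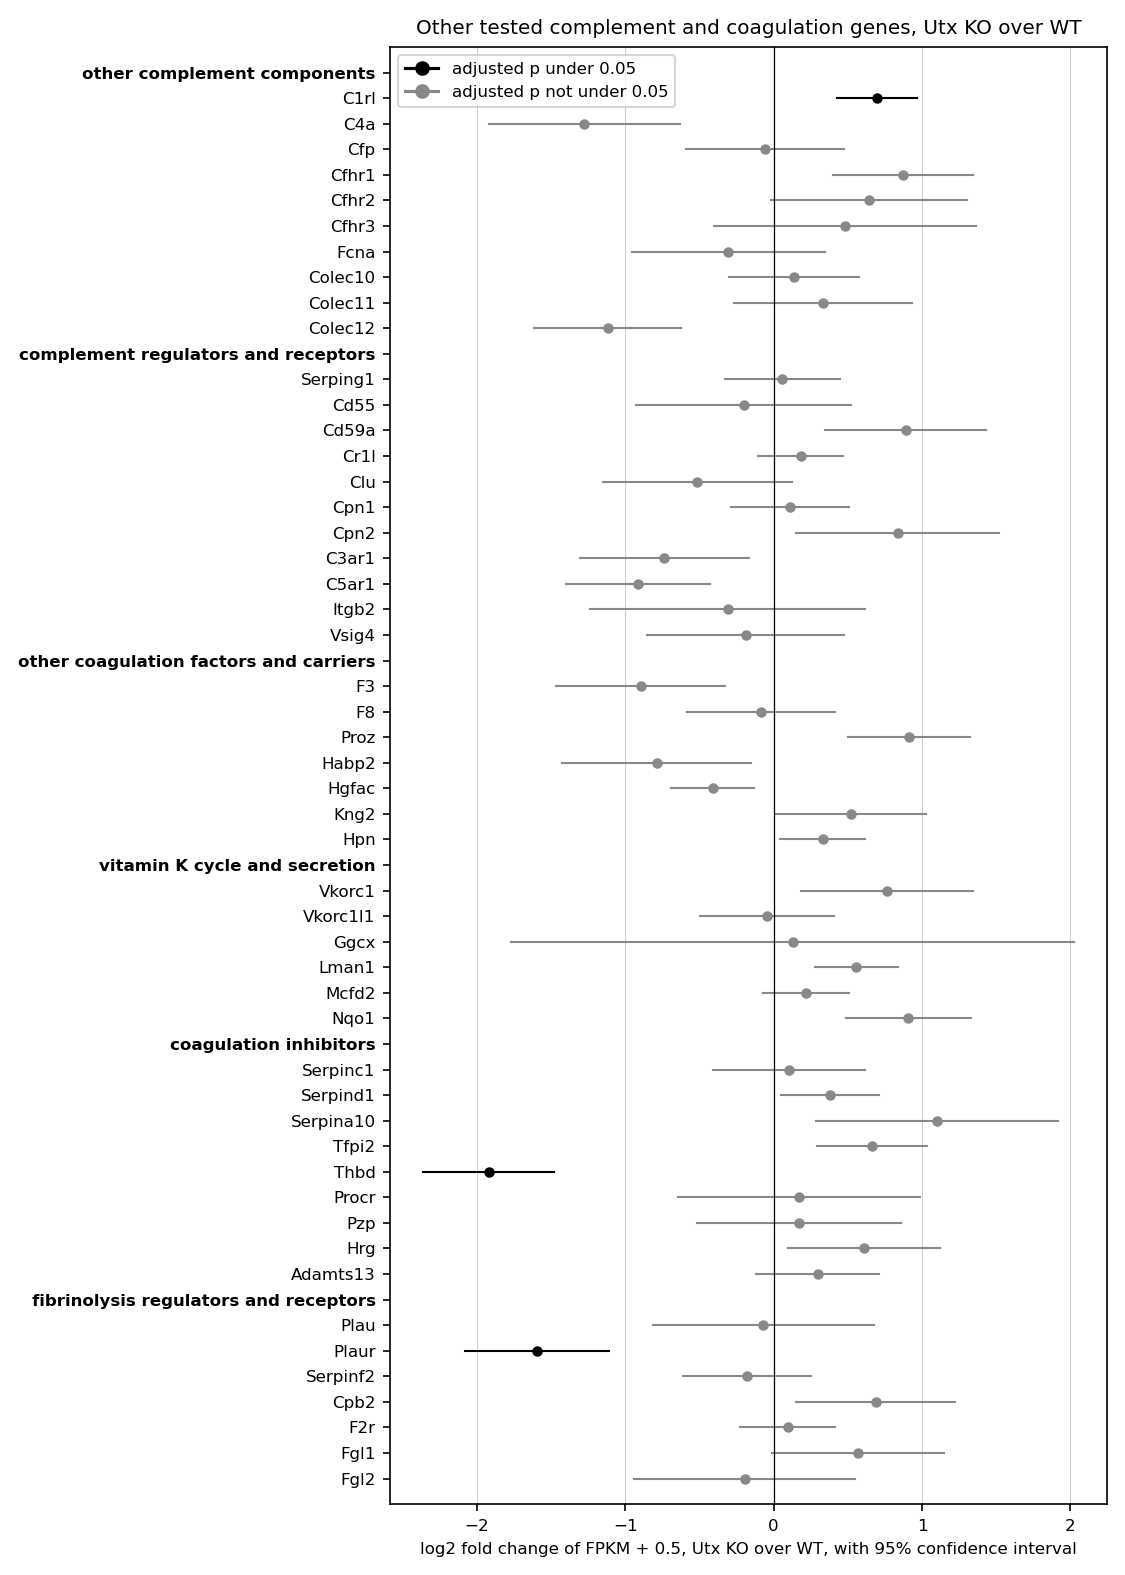
Log2 fold change of FPKM + 0.5, Utx KO over WT, with 95% confidence intervals for the tested complement and coagulation genes outside the list of 38 that are reported here. Thbd lies at -1.92, Plaur at -1.60 and C1rl at 0.70, and these are drawn in black, with an adjusted p under 0.05.

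Further genes of these lists are given by abundance. Among complement components, Cfhr2 was at 156 and 118 FPKM in KO and 71.5 and 105 FPKM in WT pools, and reads may be divided between it and similar genes. Colec12, a scavenger receptor of the collectin family, was at 15.6 and 12.6 FPKM in KO and 27.1 and 35.4 FPKM in WT pools (-1.12, SE 0.19, limma adjusted p = 0.0510). For these genes the pools of KO and WT did not overlap. Properdin (Cfp) and ficolin A (Fcna) overlapped, at 18.4 and 26.8 FPKM and at 20.1 and 29.6 FPKM in KO pools, against 23.8 and 22.5 FPKM and 35.1 and 26.2 FPKM in WT pools.

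Of the regulators and receptors, Clu, clusterin, was at 391 and 479.7 FPKM in KO and 743 and 514 FPKM in WT pools. Serping1, the C1 inhibitor, was at 181 and 165 FPKM in KO and 153 and 181 FPKM in WT pools. Cd59a, which blocks the membrane pore on host cells, was at 33.1 and 27.7 FPKM in KO and 13.6 and 19.2 FPKM in WT pools (log2 fold change 0.89, SE 0.21, limma adjusted p = 0.0828). Cpn1 and Cpn2, the subunits of carboxypeptidase N, averaged 58.4 ± 9.57 and 39.8 ± 12.7 FPKM in KO, against 53.8 ± 2.04 and 21.6 ± 3.40 FPKM in WT. Vsig4, a complement receptor of Kupffer cells, was at 18.4 and 27.6 FPKM in KO and 29.7 and 22.4 FPKM in WT pools, and like the C1q chains it was lowest in KO pool 1. None of the 11 tested genes of this group was called, where 4.74% of all tested genes were.

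Among other coagulation factors, Proz, protein Z, was at 37.0 and 28.6 FPKM in KO and 16.6 and 17.5 FPKM in WT pools (log2 fold change 0.91, SE 0.16, limma adjusted p = 0.0524), and its partner Serpina10 at 76.6 and 43.1 FPKM in KO and 23.6 and 29.9 FPKM in WT pools (1.10, SE 0.31, limma adjusted p = 0.113). Both KO pools were above both WT pools in each. F3, tissue factor, was at 1.69 and 1.15 FPKM in KO and 2.69 and 3.42 FPKM in WT pools (-0.90, SE 0.22, limma adjusted p = 0.0885), and Habp2 and Hgfac had log2 fold changes of -0.79 and -0.41. Hpn, the protease hepsin, averaged 83.8 ± 4.30 FPKM in KO and 66.5 ± 0.0645 FPKM in WT. None of the 7 tested genes of this group was called, where 4.74% of all tested genes were. At an unadjusted limma p under 0.05, 3 of the 7 were higher and 3 lower, against 12.7% and 14.4% of all tested genes. Both KO pools were above both WT pools for 3 and below for 3, where the shares over all tested genes were 31.6% and 29.9%.

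The list of the vitamin K cycle and of carriers that move clotting factors out of the endoplasmic reticulum held 6 genes. Of these, 0 were called, where 4.74% of all tested genes were. Both KO pools were above both WT pools for 4 of the 6, where the share over all genes was 31.6%. Vkorc1, the vitamin K epoxide reductase, was at 10.02 and 6.53 FPKM in KO and 4.37 and 4.77 FPKM in WT pools. Lman1 and Mcfd2, which carry factors V and VIII, averaged 43.0 ± 2.01 and 132 ± 1.98 FPKM in KO, against 29.0 ± 0.881 and 113 ± 0.139 FPKM in WT. Nqo1, a quinone reductase, was at 54.0 and 61.1 FPKM in KO and 27.0 and 34.2 FPKM in WT pools. Vkorc1l1 overlapped between groups, and limma adjusted p-values over the list ran from 0.0539 to 0.925. At an unadjusted limma p under 0.05, 3 of the 6 were higher, against 12.7% of all tested genes. Among inhibitors of coagulation, both KO pools were above both WT pools for 5 of 9 tested genes, where the share over all genes was 31.6%. Thbd was the 1 of the 9 called, lower in KO, where 3.14% of all tested genes were. The 5 include Hrg, histidine-rich glycoprotein, at 374 and 312 FPKM in KO and 196 and 255 FPKM in WT pools, Serpind1, heparin cofactor, and Tfpi2. Serpinc1, antithrombin, averaged 149 ± 28.0 FPKM in KO and 138 ± 19.3 FPKM in WT, and Pzp 445 ± 105 FPKM in KO and 395 ± 91.6 FPKM in WT. Of the fibrinolysis regulators, Cpb2, which protects fibrin, was at 80.3 and 97.1 FPKM in KO and 46.5 and 64.0 FPKM in WT pools, Fgl1, a fibrinogen-like liver protein, at 237 and 219 FPKM in KO and 127 and 186 FPKM in WT pools, and Serpinf2, the plasmin inhibitor, at 239.7 and 191 FPKM in KO and 235 and 251 FPKM in WT pools. F2r, a thrombin receptor, overlapped between groups.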

How the data were processed

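Liver RNA of 4 pools was analysed, 2 from Utx KO and 2 from WT mice, with 2 mice in each pool. The authors deposited 1 table of FPKM values per gene, and the submitters' processing notes name HISAT2 2.0.5 and the mouse build GRCm38.p6, also called mm10. The counting program, gene annotation and strand setting were not stated. FPKM times gene length gave whole reads for every value above 0, to within 0.01 of a read, which set the depth of 16330451 to 17804730 reads per library. Limma 3.58.1 in R 4.3.3 (linear model with a mean-variance trend, two-sided) was fitted on log2(FPKM + 0.5) of 11900 genes with a mean of 1 FPKM or more, and p-values were adjusted over all of them by Benjamini-Hochberg at 0.05. A fold change on this scale understates the change of low genes. Simulated data with known changes were also passed to the fit. Genes were drawn there independently and with the same relative spread between pools. The simulation therefore cannot show how the fit treats genes that move together between pools. The pools within a group differed beyond counting error (chi-square per gene 26.2 in KO and 31.6 in WT), so none was a duplicate. All 38 genes are named. From 73 further pathway genes, each gene past the threshold was named, with up to 6 per list by highest mean FPKM, except for items that are not reported here. C4a, Camp, Cd163 and the partner pairs were chosen after their values were seen. The 38 genes and all lists were chosen with earlier results of these data known. No p-value was computed for a list, and alternatives covered the pseudocount, the filter, scaling, the variance prior, limma voom, a replicate block and leaving out each library. Plots were drawn with matplotlib 3.10.9.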

Additional observations from a re-analysis of the deposited data

How the results depend on the processing

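Over all genes, 564 of 11900 were called, against 0 without a filter on low values and 634 of 6548 at a mean of at least 5 FPKM. The count was 466 when rescaled to listed reads, 280 without a mean-variance trend and 901 with limma voom. It was 310 with the replicate number as a block. Of the 38 complement and coagulation genes, 1 was called, against 0 without the filter, 2 at a mean of at least 5 FPKM, 0 without the trend, 5 with voom and 0 with the block. Of the 52 other cascade genes tested, 4 were called, against 0 of 73 without the filter and 9 of 39 at 5 FPKM. Among the 52, 8 were called when rescaled to listed reads, 2 without the trend, 13 with voom and 3 with the block. Without the filter more genes were tested, and without 1 library the fit had fewer samples. Why the counts changed was not tested for any setting. Leaving out 1 library gave 0 to 234 calls over all genes, 0 to 0 among the 38 genes and 0 to 4 among the other genes. In these fits the lone pool of a group was assumed to vary like the other group. The labels do not say that equal numbers mark a shared origin, and deviations of same-numbered pools correlated at -0.14, so the block pairs samples by number only.

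With scaling by the median of ratios, the log2 fold changes of Vtn, F12 and Pros1 turned to -0.0106, -0.0110 and -0.0069, against main values of 0.00. Without single libraries 25 of the 38 genes kept their direction and 13 did not. Their ranges were -0.042 to 0.28 for Cfi, -0.50 to 0.14 for C1qc, -0.21 to 0.078 for C1ra, -0.049 to 0.39 for C1s1, -0.43 to 0.15 for C8b, -0.17 to 0.24 for C8g and -0.36 to 0.021 for Masp1. They were -0.18 to 0.18 for Vtn, -0.17 to 0.35 for F5, -0.16 to 0.16 for F12, -0.013 to 0.45 for F13b, -0.15 to 0.15 for Pros1 and -0.080 to 0.59 for Klkb1. A quasi-likelihood count test with either of 2 scalings was planned and not run. With 2 pools a group, differences of the size of the fibrinogen spread could not be resolved. Cfb, with 71 to 123 reads per pool, had the fewest reads behind its value.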

Other observations

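Several of the 38 genes are neighbours in the genome, and 9 pairs lie less than 100000 bases apart. Neighbours with like log2 fold changes were F7 and F10 (0.57 and 0.46, with 1498 bases between them), Cfb and C2 (0.28 and 0.23, with 85 bases between them) and the fibrinogen genes. Neighbours with unlike values were C8a and C8b (0.77 and -0.14, with 11130 bases between them) and Klkb1 and F11 (0.26 and -0.68, with 4657 bases between them). No test was run on these pairs. Ggcx, the carboxylase that makes vitamin K-dependent factors functional, differed within both groups, at 0.415 and 1.91 FPKM in KO pools and at 1.82 and 0.294 FPKM in WT pools, and its log2 fold change of 0.13 had an SE of 0.72.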
